A study of Mus musculus with 20 samples.

Results

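The Wnt ligands are secreted, lipid-modified glycoproteins. They are described here through 10 genes of the family (Wnt2, Wnt4, Wnt5a, Wnt5b, Wnt6, Wnt7a, Wnt7b, Wnt10a, Wnt11 and Wnt16). These were taken by name, with earlier results of these data known. The array carried 12 probes for them among its 41174 probes (Wnt5b and Wnt6 had 2 each), and the brightest probe of each gene over the 20 arrays was used. Each array held Cy3-labelled RNA from a single uterus of an ovariectomized adult C57bl6/J mouse, at least 10 weeks old, which had rested 10 to 14 days before a single subcutaneous injection in sesame oil. The vehicle group had sesame oil alone (100 µl, labelled as collected at 24 h, n = 3). The other groups had 250 ng estradiol (E2) for 2 h (n = 3) or 24 h (n = 2), 750 µg bisphenol A (BPA) for 2 h or 24 h (n = 3 each), or 750 µg HPTE, a metabolite of the pesticide methoxychlor, for 2 h or 24 h (n = 3 each). Every group lacked ovaries, so every group lacked the main source of endogenous estrogen, and the 2 h groups had no vehicle array of their own time. The labels do not say that replicate numbers link animals of different groups.

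Wnt proteins are made lipid-bound by Porcn, carried to the cell surface by Wls and bound by Frizzled receptors. With the Lrp5 or Lrp6 co-receptor they stabilize β-catenin (the canonical route), and with receptors such as Ror2 or Ryk they act without it. In the uterus, Wnt4, Wnt5a and Wnt7a are known for their part in forming the female tract, its glands and the decidual response of the stroma to an embryo. Wnt7a, Wnt7b and Wnt11 are known mainly from the epithelium, and Wnt2, Wnt4, Wnt5a, Wnt6 and Wnt16 from the stroma at one stage or another.

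The signal of each gene rests on a 60-base probe, and the positions below are on the mouse assembly mm7 that the scanner files use. The probes for Wnt4 (chr4:136674216-136674784) and Wnt5a (chr14:25948244-25952114) spanned more genome than their own length, so each was matched across a gap in the genome. They are shown whole because they read the ligand with the largest early rise and a relative that did not rise at 2 h, with capitals marking bases that are identical when the probes are laid side by side without gaps.
Wnt4: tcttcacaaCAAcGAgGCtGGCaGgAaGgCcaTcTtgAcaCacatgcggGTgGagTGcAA
Wnt5a: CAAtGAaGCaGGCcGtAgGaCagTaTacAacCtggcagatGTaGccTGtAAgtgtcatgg
Of 51 bases that overlapped, 25 (49%) were identical.
Across all 64 pairs of probes for different ligands, the longest shared run was between 4 and 10 bases. Further probes lay at chr6:17929740-17929799 (Wnt2), chr6:91447162-91447221 (Wnt7a), chr6:119458136-119458195 (Wnt5b), chr1:75024567-75024626 (Wnt6), chr1:75043739-75043798 (Wnt10a), chr7:94885377-94885437 (Wnt11) and chr6:22227199-22227258 (Wnt16). Wnt6 and Wnt10a lay near each other on chromosome 1.

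All 10 ligands were well above background on all 20 arrays, and none was saturated. Values are scaled intensities in arbitrary units. They can be set against each other between arrays for a given gene but not between genes, since probes differ in brightness. Differences are on the log2 scale with standard errors from limma, fitted over all 7 groups, with p values adjusted (Benjamini-Hochberg) over 32460 probes within each comparison. A ligand rose or fell where the adjusted p was under 0.05. In a test across the 7 groups, 9 of 10 ligands passed, against 81.3% of all probes tested, and Wnt10a did not (adjusted p = 0.169).

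Per array, 72.7% to 81.4% of the probes exceeded background clearly, and arrays within a group correlated at 0.975 to 0.993. Some arrays carried transcripts of other cell types. All 6 testable of 7 sperm cell markers were lower in each of the 6 treated groups, where 8.03% to 37.6% of all probes were lower. The summed intensity of the 7 sperm cell markers was 51656 to 170529 on the vehicle arrays and 522 to 20942 on the others. The summed intensity of 7 pancreas markers was 252261 and 3020130 on E2 2 h replicates 3 and 2, 8237 to 20443 on the E2 24 h arrays and 733 to 1288 elsewhere. The summed intensity of 5 leukocyte markers was 127432 on BPA 2 h replicate 1, 22952 and 11099 on the other BPA 2 h arrays, and 6926 to 25500 on the arrays of the other groups. Markers of uterus, epithelium, stroma, muscle and endothelium were above background in every group. The part of these transcripts in the differences from vehicle or between the times was not tested. The mean differences between 24 h and 2 h use no vehicle array, although their standard errors come from the fit over all 7 groups. They do use the E2 arrays with the pancreas signal and the BPA 2 h array with the high leukocyte signal.

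At 2 h, Wnt4 rose with every compound and was the ligand with the largest difference from vehicle in each of the 3 groups. Wnt4 is needed for Müllerian duct formation and for decidualization. Its scaled intensity was 1925, 1977 and 2302 on the vehicle arrays. It was 10396, 11285 and 13425 with E2, 17157, 18862 and 10288 with BPA and 20796, 18423 and 19752 with HPTE. The lowest treated array stood far above the highest vehicle array, and BPA replicate 3 was the lowest treated array. The differences from vehicle were 2.50 (SE 0.18, 5.64-fold, adjusted p = 3.07e-07) with E2, 2.86 (7.24-fold, adjusted p = 3.85e-08) with BPA and 3.25 (9.52-fold, adjusted p = 1.17e-08) with HPTE. Each kept its call in all 32 alternative settings tried, including each array left out in turn. The difference between HPTE and vehicle was 3.26 and 3.32 on the slides that held both.

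Wnt7b and Wnt5b were the other ligands that rose at 2 h, and they did so after both xenoestrogens. Wnt7b, an epithelial ligand, read 129, 129 and 137 on vehicle arrays, 622, 690 and 292 after BPA, and 640, 818 and 654 after HPTE. All treated arrays lay above vehicle, with BPA replicate 3 lower than its group mates. The differences were 1.93 (SE 0.26, adjusted p = 2.87e-05) and 2.41 (adjusted p = 3.23e-06). With E2 it read 203, 179 and 277, also above every vehicle array, and the difference of 0.71 (SE 0.26) narrowly missed the threshold (adjusted p = 0.0532). It passed when E2 2 h replicate 2 was left out (0.85, adjusted p = 0.0486), and also without BPA 2 h replicate 2 (adjusted p = 0.0384) or replicate 3 (adjusted p = 0.00561), where the difference stayed at 0.71.

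Wnt5b, a ligand that mainly signals without β-catenin, read 3569, 3865 and 4274 on vehicle arrays, 5763, 7378 and 5303 with BPA and 7449, 5520 and 6798 with HPTE. The groups did not overlap vehicle. The differences were 0.65 (SE 0.13, adjusted p = 0.00102) and 0.75 (adjusted p = 0.000282). Its other probe gave 0.96 (adjusted p = 0.00105) and 0.94 (adjusted p = 0.00114). For E2 at 2 h that probe gave 0.51 (adjusted p = 0.0675), and its arrays overlapped vehicle. The BPA call was lost with normexp correction (0.40, adjusted p = 0.0554) and with spike-in scaling (0.73, adjusted p = 0.0985). With E2 the brightest probe read 4426, 5093 and 5540, a difference of 0.36 (adjusted p = 0.0569). Leaving out vehicle replicate 3 (0.43, adjusted p = 0.05), E2 2 h replicate 1 (0.45, adjusted p = 0.0354), BPA 2 h replicate 2 or 3 (adjusted p = 0.0324 and 0.0447) or HPTE 2 h replicate 2 (adjusted p = 0.0407) brought it to the threshold or past it.

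**Figure D1:**
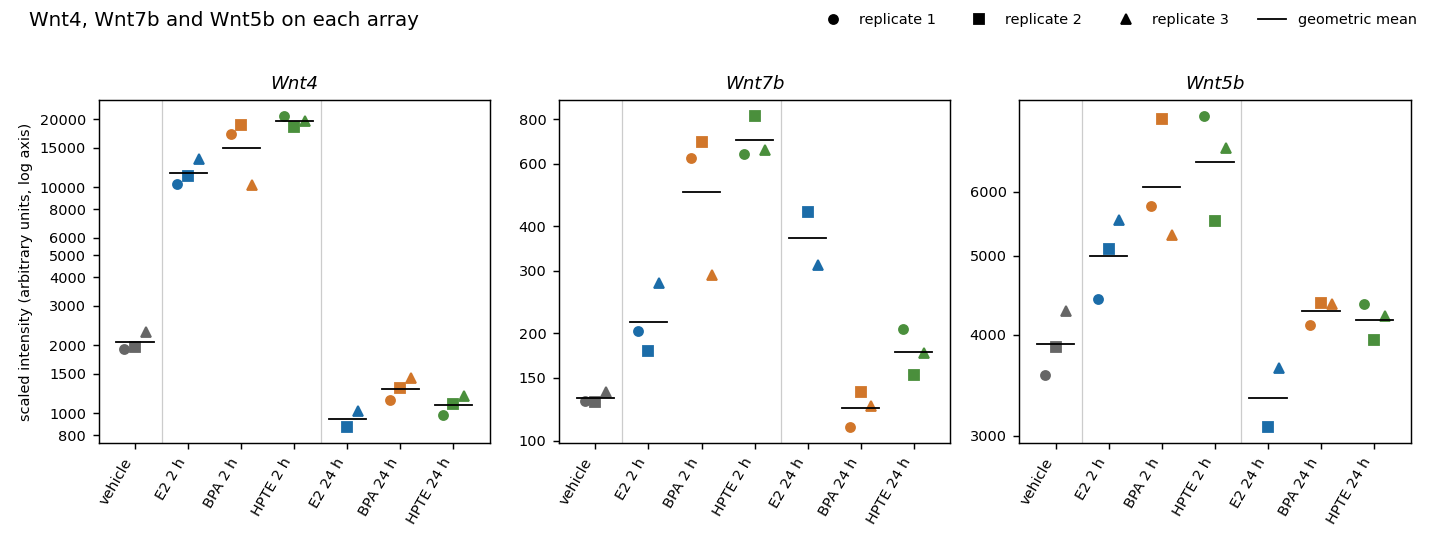
Scaled intensity (arbitrary units, log axis) of Wnt4, Wnt7b and Wnt5b on each of the 20 arrays by group, with symbols for replicates and a bar at the geometric mean. By the brightest probe, all 9 arrays at 2 h lie above the 3 vehicle arrays for all 3 ligands. Wnt4 is below vehicle on all 8 arrays at 24 h.

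The 250 bases before the start of Wnt4 are shown because it had the largest early rise. They come from the RefSeq promoter table (GRCm38.p6, chr4:137277385-137277634, forward strand), read toward the start, with capitals on every GC box (GGGCGG on either strand), the letters to which Sp1 binds.
Wnt4 promoter: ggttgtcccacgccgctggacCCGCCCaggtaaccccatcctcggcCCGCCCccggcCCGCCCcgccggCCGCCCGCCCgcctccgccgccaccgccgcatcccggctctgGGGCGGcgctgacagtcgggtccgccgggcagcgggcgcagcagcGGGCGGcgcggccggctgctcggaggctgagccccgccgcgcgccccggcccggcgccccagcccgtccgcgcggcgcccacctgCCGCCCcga
The Wnt4 window held 8 GC boxes, 2 of them overlapping, whereas 32.7% of 32851 promoter windows of the same length held any and 0.155% held at least 8. It held neither a full estrogen response element (GGTCA and TGACC with 3 bases between, in 0.0639% of windows, both strands) nor an AP-1 site (TGANTCA, in 6.75%). The table had windows for 7 of the 10 ligands and 10 starts in all (not Wnt5a, Wnt7b or Wnt10a). Wnt6 and Wnt7a, which fell at 2 h with the xenoestrogens, held 6 GC boxes each, and Wnt2 and Wnt11 (at 1 of its 2 starts) held 1 and 4. Of 3 Wnt5b starts, 1 held an AP-1 site. These are matches of letters only.

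At 2 h, 5 ligands fell with BPA and 4 with HPTE. In all, E2 changed 1 of the 10 ligands at 2 h, upward, where 28.1% of all probes tested passed (11.1% higher, 17% lower). BPA changed 8, 3 upward and 5 downward, where 49.4% of probes passed (19.3% higher, 30.2% lower). HPTE changed 7, 3 upward and 4 downward, where 48.1% passed (19.9% higher, 28.2% lower). The median difference of the 10 was 0.16, -0.50 and -0.42, against -0.06, -0.10 and -0.09 over all probes.

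Wnt7a, the ligand of the luminal epithelium that patterns the female tract and permits gland formation, fell most. It read 2140, 2546 and 2919 on vehicle arrays and 602, 520 and 796 with HPTE, a difference of -2.0 (SE 0.43, 3.99-fold lower, adjusted p = 0.00136). With BPA it read 399, 721 and 2415, so replicates 1 and 2 were far below vehicle and replicate 3 lay within the vehicle range. The mean difference was -1.51 (SE 0.43, adjusted p = 0.00956). Without replicate 1 it was -0.93 (adjusted p = 0.0536), without replicate 3 it was -2.23 (adjusted p = 6.16e-06), and within slides it ran from -2.67 to 0.17. The call was also lost with only the groups compared (-1.51, adjusted p = 0.112). BPA 2 h replicate 1 was also the array with the high leukocyte signal. The summed intensity of 6 epithelial markers was 82198 to 127048 with BPA and 120520 to 135580 with HPTE at 2 h, against 143084 to 167072 in vehicle (3 of 6 lower with BPA, 0 of 6 with HPTE by limma), and 3 of 5 stromal markers were lower with each. Of 5 uterus markers, 4 were lower and 1 higher with BPA, and 3 lower and 1 higher with HPTE. Their summed intensity was 27141 to 51085 and 29609 to 45763, against 64566 to 76520 in vehicle. Of 4 endothelial markers, 2 and 1 were lower, and of 6 muscle markers 0 and 1 were higher. Among all probes, 30.2% and 28.2% were lower and 19.3% and 19.9% higher. The part of these markers in the falls at 2 h was not tested. With E2, Wnt7a read 2733, 3587 and 3947, a difference of 0.43 (95% interval -0.50 to 1.35, adjusted p = 0.518).

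Wnt6, a stromal ligand in early decidualization, read 4091, 2981 and 3817 on vehicle arrays, 1109, 1311 and 1758 with BPA and 2070, 1912 and 1564 with HPTE. No treated array reached the vehicle range. The differences were -1.40 (SE 0.21, adjusted p = 8.44e-05) and -0.97 (adjusted p = 0.00148), the latter lost with spike-in scaling (-0.72, adjusted p = 0.0567). With E2 it read 2779, 2731 and 2018, also below every vehicle array, with a difference of -0.53 (adjusted p = 0.0754). The other Wnt6 probe gave -0.55 for E2, with adjusted p = 0.0155. The brightest probe passed with no scaling (-0.76, adjusted p = 0.0246) and with the slide as a fixed block (-0.71, adjusted p = 0.0354). For E2 the call thus depends on the probe and on the setting.

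Wnt16, known from the stroma next to the luminal epithelium, read 1051, 1198 and 1007 on vehicle arrays, 591, 785 and 568 with BPA (-0.76, SE 0.14, adjusted p = 0.000524) and 898, 842 and 687 with HPTE (-0.43, adjusted p = 0.0223). Neither group overlapped vehicle. For HPTE the call was lost without vehicle replicate 2 (-0.36, adjusted p = 0.0901) or HPTE 2 h replicate 3 (-0.32, adjusted p = 0.111). The BPA call was lost with normexp correction (-0.35, adjusted p = 0.125) and with spike-in scaling (-0.67, adjusted p = 0.148), and so was the HPTE call (-0.45, adjusted p = 0.0959, and -0.18, adjusted p = 0.758). With E2 it read 1011, 1216 and 1256 (difference 0.09, 95% interval -0.21 to 0.40).

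Each of the remaining falls at 2 h lost its call in several alternative settings. Wnt5a fell with HPTE from 290, 396 and 345 to 227, 178 and 184 (-0.80, SE 0.27, adjusted p = 0.0215). That call was lost without vehicle replicate 2 (-0.70) or HPTE 2 h replicates 2 (-0.74) or 3 (-0.76). It was also lost with normexp correction (adjusted p = 0.0786), quantile normalization (0.0871), no scaling (0.0676), spike-in scaling (0.373) and the slide as a fixed block (0.0761). With BPA, Wnt5a read 185, 217 and 320 and did not pass (-0.54, adjusted p = 0.108), but passed without BPA 2 h replicate 3 (-0.76, adjusted p = 0.0334). Wnt2, a ligand of mesenchymal cells, fell with BPA from 1659, 1528 and 1485 to 677, 1042 and 1527 (-0.60, SE 0.21, adjusted p = 0.0253). Here too replicate 3 lay within the vehicle range. The call was lost without BPA replicate 1 (-0.30), BPA replicate 2 (-0.61, adjusted p = 0.0533), vehicle replicate 1 (-0.56) or vehicle replicate 2 (-0.62). It was also lost with normexp correction (adjusted p = 0.107), no scaling (0.0666), spike-in scaling (0.319) and only the groups compared (0.152). With HPTE, Wnt2 read 1173, 1144 and 1220, below every vehicle array, and did not pass (-0.40, adjusted p = 0.127). It did pass without BPA 2 h replicate 1 or 3 (adjusted p = 0.0307 and 0.0376) and with only the groups compared (adjusted p = 0.00942).

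Wnt11, a ligand that acts largely without β-catenin, fell with BPA from 605, 639 and 683 to 481, 460 and 462 (-0.46, SE 0.17, adjusted p = 0.0412). The groups did not overlap, yet the call was lost when any vehicle or BPA 2 h array was left out (-0.50 to -0.41), and the difference was 0.06 after another background correction. The call was kept in 15 of the 32 alternative settings. With HPTE it read 518, 536 and 494 (-0.31, adjusted p = 0.156), and passed without E2 24 h replicate 2 or 3 (adjusted p = 0.0389 each). With only the groups compared, Wnt11 also passed for HPTE (-0.31, adjusted p = 0.0252). Wnt2, Wnt5a and Wnt11 were within the spread of the vehicle arrays or overlapped them at 2 h with E2, with differences of -0.06, 0.20 and 0.13.

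**Figure D2:**
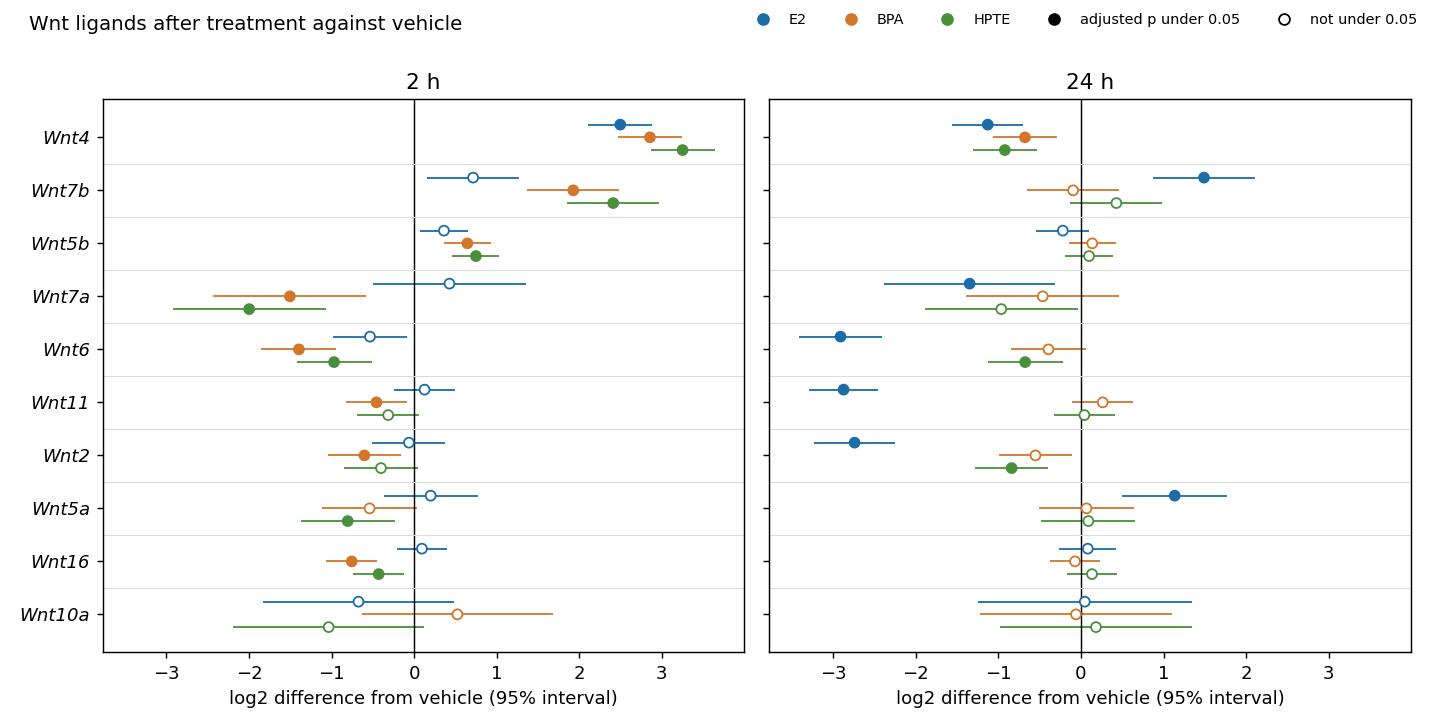
Log2 difference from vehicle of the 10 ligands at 2 h and 24 h with E2, BPA and HPTE, with 95% intervals, filled where the adjusted p was under 0.05. Wnt4 is the ligand that passed in all 6 comparisons, upward at 2 h (2.50 to 3.25) and downward at 24 h (-1.13 to -0.68).

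By 24 h, Wnt4 had fallen below vehicle with every compound. It read 868 and 1023 with E2, 1145, 1301 and 1437 with BPA and 981, 1097 and 1197 with HPTE, each array below the lowest vehicle array. The differences were -1.13 (SE 0.20, 2.19-fold lower, adjusted p = 0.000176), -0.68 (1.6-fold lower, adjusted p = 0.0233) and -0.92 (1.89-fold lower, adjusted p = 0.00139). The BPA call was lost without vehicle replicate 1 (-0.73, adjusted p = 0.0534), vehicle replicate 3 (-0.60, adjusted p = 0.0687) or BPA 24 h replicate 1 (-0.59, adjusted p = 0.108). It was also lost with normexp correction (-0.60, adjusted p = 0.0796), with spike-in scaling (-0.80, adjusted p = 0.353) and without the later scan day (-0.76, adjusted p = 0.0544). From 2 h to 24 h, the Wnt4 differences were -3.63 with E2, -3.53 with BPA and -4.17 with HPTE, which is 12.3-fold, 11.6-fold and 18-fold lower. Ordered by level, the groups ran from HPTE, BPA and E2 at 2 h through vehicle to BPA, HPTE and E2 at 24 h. Of these neighbours, HPTE and BPA did not differ past the threshold at either time, and arrays of BPA and E2 at 2 h and of HPTE and E2 at 24 h overlapped. Both steps next to vehicle passed, the step to BPA at 24 h with the losses given above.

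E2 at 24 h was marked by steep falls of Wnt6, Wnt11 and Wnt2, by 6.69-fold to 7.53-fold against vehicle. Wnt6 read 604 and 378, a difference of -2.91 (SE 0.24, 7.53-fold lower, adjusted p = 7.93e-08), and its other probe was 5.44-fold lower. Wnt11 read 64.3 and 119, a difference of -2.87 (SE 0.20, 7.34-fold lower, adjusted p = 1.49e-08). Wnt2 read 209 and 258, a difference of -2.74 (SE 0.23, 6.69-fold lower, adjusted p = 1.09e-07). For all 3 ligands both E2 arrays stood far below each of the other 18 arrays. These 3 calls were kept in all 32 alternative settings. From 2 h to 24 h of E2 the differences of Wnt6, Wnt11 and Wnt2 were -2.38, -3.0 and -2.68. These mean differences do not use the vehicle arrays, but they do use the E2 arrays with the pancreas signal, whose part was not tested.

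Cell markers also passed the threshold in the same group, where 63.8% of all probes passed (26.3% higher, 37.6% lower). The summed intensity of 6 epithelial markers was 297359 and 343474 with E2 at 24 h, against 143084 to 167072 in vehicle, with 4 of the 6 higher and 1 lower. Of 6 muscle markers, 5 were higher. Of 5 stromal markers, 2 were higher and 2 lower. Of 4 endothelial markers, 3 were lower (summed intensity 8678 to 8983, against 11373 to 12091 in vehicle), and of 5 uterus markers 1 was higher and 2 lower. Their part in the falls of the ligands was not tested. In RNA of whole uteri, fewer cells of a type and less RNA per cell cannot be told apart.

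Wnt7a also fell with E2 at 24 h, to 995 and 980 (-1.35, SE 0.49, adjusted p = 0.0239). The call was lost without vehicle replicate 3 (-1.24, adjusted p = 0.0619), E2 replicate 2 (-1.36, adjusted p = 0.0837) or E2 replicate 3 (-1.34, adjusted p = 0.0897). The Wnt7a call was also lost with the slide as a fixed block (-1.24, adjusted p = 0.12) and with spike-in scaling (-1.32, adjusted p = 0.05). Wnt7b and Wnt5a rose with E2 at 24 h. Wnt7b read 438 and 312 against 129 to 137 in vehicle (1.49, SE 0.29, 2.81-fold, adjusted p = 0.000368), and lost its call with normexp correction (0.91, adjusted p = 0.12). Wnt5a, known for its part in gland formation, read 641 and 876 against 290 to 396 (1.14, SE 0.30, 2.2-fold, adjusted p = 0.00372). Wnt5a lost its call without E2 replicate 3 (0.91, adjusted p = 0.0553) or with normexp correction (0.88, adjusted p = 0.0635).

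In all, E2 changed 7 of the 10 ligands at 24 h, 2 upward and 5 downward, where 63.8% of all probes passed (26.3% higher, 37.6% lower). BPA changed 1, downward, where 13.1% passed (5.09% higher, 8.03% lower). HPTE changed 3, all downward, where 34% passed (14.9% higher, 19.1% lower). The median difference of the 10 was -0.67, -0.08 and 0.07, against -0.15, -0.03 and -0.06 over all probes.

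Beside Wnt4, the ligands that passed against vehicle at 24 h of a xenoestrogen were Wnt2 and Wnt6, both with HPTE. Wnt2 read 787, 881 and 948 (-0.84, SE 0.21, adjusted p = 0.00619), below every vehicle array. With the slide as a fixed block the Wnt2 call was lost (-0.80, adjusted p = 0.0611), as was that of Wnt6 (-0.64, adjusted p = 0.08). Wnt6 read 2324, 2086 and 2354 (-0.68, SE 0.21, adjusted p = 0.0236). The Wnt6 call was lost without vehicle replicate 1 (-0.58) or 3 (-0.63), or HPTE 24 h replicate 1 (-0.70) or 2 (-0.62). Its other probe gave -0.61 (adjusted p = 0.00759). In the same group 5 of 6 epithelial markers were higher (summed intensity 240143 to 263053, against 143084 to 167072 in vehicle), as were 6 of 6 muscle markers and 2 of 5 stromal markers, and 2 of 5 uterus markers were lower. Of 4 endothelial markers, 1 was higher and 1 lower. Among all probes, 14.9% were higher and 19.1% lower. The part of these markers in the falls was not tested. Wnt7a read 1348, 1030 and 1538 with HPTE, each below vehicle, and did not pass (-0.97, adjusted p = 0.0998), but did without BPA 2 h replicate 1 (adjusted p = 0.0339) or replicate 3 (adjusted p = 0.0046).

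With BPA at 24 h, Wnt2 read 923, 1043 and 1243, also below every vehicle array (-0.55, adjusted p = 0.0954), and passed without BPA 2 h replicate 1 or 3 (adjusted p = 0.0202 and 0.0242). Wnt7a read 1650, 1981 and 1858 (-0.46, 95% interval -1.39 to 0.46) and Wnt6 read 2451, 3427 and 2442 (-0.39, 95% interval -0.85 to 0.06). Wnt11 read 776, 771 and 764, close together and above vehicle (0.26, 95% interval -0.11 to 0.64), and 756, 558 and 683 with HPTE (0.04, 95% interval -0.33 to 0.41). Wnt7b read 109, 137 and 125 with BPA, across the vehicle range, and 206, 153 and 176 with HPTE, where each array was still above vehicle (0.43, adjusted p = 0.224).

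**Figure D3:**
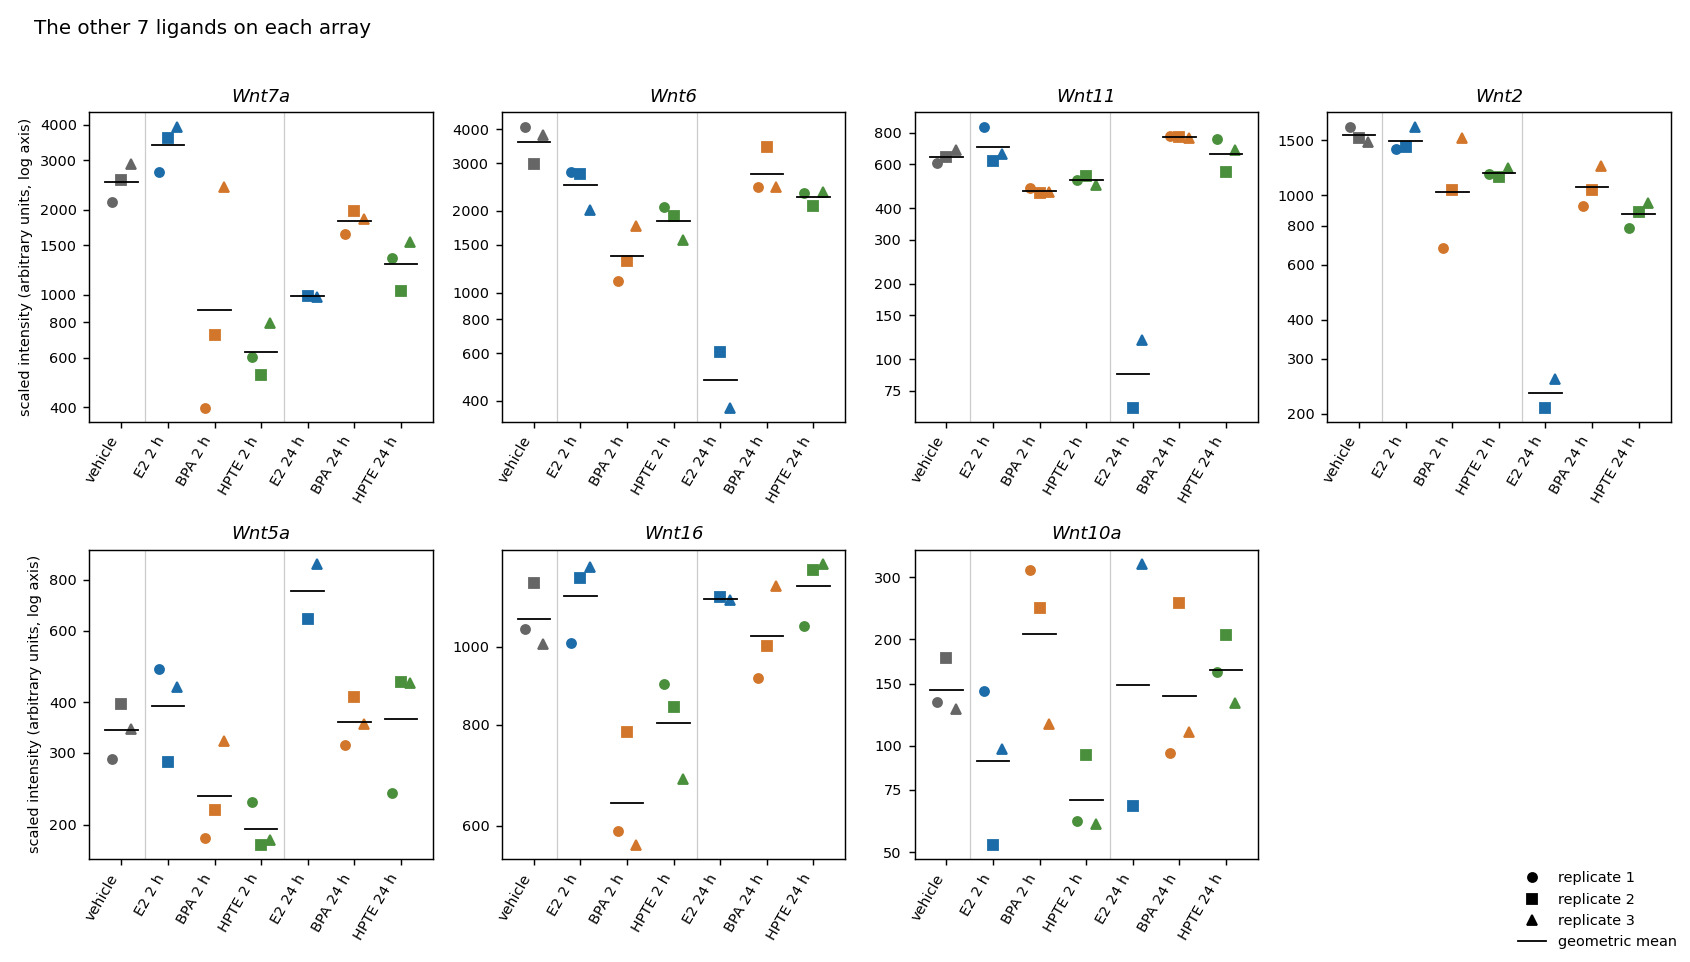
Scaled intensity (arbitrary units, log axis) of the 7 other ligands on each of the 20 arrays by group, with symbols for replicates and a bar at the geometric mean. The E2 24 h arrays are the lowest for Wnt6, Wnt11 and Wnt2, BPA 2 h replicate 3 stands with vehicle for Wnt7a and Wnt2, and the Wnt10a arrays of E2 at 24 h lie at 67.7 and 327.

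Set side by side over time, the ligands moved in different ways within a compound. From 2 h to 24 h, E2 changed 8 of 10 ligands, 2 upward and 6 downward, where 56% of all probes passed (25.9% higher, 30.1% lower). Wnt5a rose (0.94, adjusted p = 0.0147) and Wnt7b rose (0.78, adjusted p = 0.0335), while Wnt5b fell (-0.58, adjusted p = 0.00382) and Wnt7a fell (-1.78, adjusted p = 0.00561), beside Wnt2, Wnt4, Wnt6 and Wnt11. Wnt5a lost its call without E2 2 h replicate 2 or E2 24 h replicate 3 (0.71 each). Wnt7b lost it without E2 2 h replicate 1 (0.73) or 2 (0.64) or E2 24 h replicate 2 (0.53). Wnt5b lost it without E2 24 h replicate 2 (-0.46), and its other probe gave -0.34 (adjusted p = 0.211). With spike-in scaling the calls of Wnt5a (1.04), Wnt5b (-0.48) and Wnt7b (0.88) were lost.

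From 2 h to 24 h of BPA, 6 of 10 ligands changed, where 48.4% of all probes passed (28.2% higher, 20.2% lower). Wnt4, Wnt7b (-2.02, adjusted p = 1.58e-05) and Wnt5b (-0.51, adjusted p = 0.00536) fell, and Wnt6 (1.0, adjusted p = 0.00115), Wnt11 (0.72, adjusted p = 0.00305) and Wnt16 (0.68, adjusted p = 0.00106) rose. With normexp correction or spike-in scaling the calls of Wnt5b (-0.32 and -0.72), Wnt11 (0.15 and 0.51) and Wnt16 (0.32 and 0.47) were lost. Wnt7a (1.04, adjusted p = 0.0596) and Wnt5a (0.61, adjusted p = 0.0747) did not pass, but did without BPA 2 h replicate 3 (1.77, adjusted p = 4.83e-05, and 0.83, adjusted p = 0.0231). Wnt5a also passed without HPTE 24 h replicate 1 (adjusted p = 0.038).

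From 2 h to 24 h of HPTE, 5 of 10 changed, where 54.1% of all probes passed (29.5% higher, 24.6% lower). Wnt4, Wnt7b (-1.98, adjusted p = 1.32e-05) and Wnt5b (-0.65, adjusted p = 0.000741) fell, and Wnt5a (0.89, adjusted p = 0.0104) and Wnt16 (0.56, adjusted p = 0.00373) rose. Wnt5a, which read 239, 448 and 446 with HPTE at 24 h, lost its call without replicate 2 (0.74, adjusted p = 0.0506) or replicate 3 (0.75, adjusted p = 0.0502) of that group. With spike-in scaling the Wnt5a and Wnt16 calls were lost (0.35 and 0.01). Wnt7a (1.03, adjusted p = 0.0564) passed without BPA 2 h replicate 1 or 3 (adjusted p = 0.015 and 0.00133), Wnt2 (-0.44, adjusted p = 0.0884) likewise (adjusted p = 0.0174 and 0.0219), and Wnt11 (0.36, adjusted p = 0.0998) without either E2 24 h array (adjusted p = 0.0188) or HPTE 24 h replicate 2 (0.48, adjusted p = 0.0489).

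Wnt10a is a canonical ligand best known from skin and teeth. It had the largest standard error against vehicle at 2 h of the 10 ligands (0.54). In the fit reported here it passed no comparison. It read 133, 177 and 127 with vehicle, 143, 52.4 and 98 with E2 at 2 h, and 67.7 and 327 with E2 at 24 h. With BPA it read 314, 246 and 115 at 2 h and 95.6, 253 and 109 at 24 h. With HPTE it read 61.3, 94.1 and 60.1 at 2 h, each below vehicle (-1.04, 95% interval -2.19 to 0.12), and 162, 205 and 132 at 24 h. Its highest BPA 2 h value was on replicate 1, the array with the high leukocyte signal, and its lowest E2 2 h value on replicate 2, the array with the highest pancreas signal. The part of either was not tested. With only the groups compared, Wnt10a passed for HPTE at 2 h against vehicle (-1.04, adjusted p = 0.0118). In that setting it also passed between the HPTE times (1.22, adjusted p = 0.00751). Single arrays moved it past the threshold between the times, without E2 24 h replicate 2 (1.86, adjusted p = 0.0236) for E2 and without either E2 24 h array (1.22, adjusted p = 0.0303) for HPTE.

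BPA and HPTE, which share a pair of hydroxyphenyl rings on a central carbon and differ in what else that carbon carries (methyl groups in BPA, a hydrogen and a trichloromethyl group in HPTE), were given at the same dose and times. E2 was given at another dose, so its values stand beside theirs without a test. Of 20 pairs of values (10 ligands at each time), limma called 0 at 2 h, where 0.437% of all probes passed (0.24% higher, 0.197% lower with HPTE), and 0 at 24 h, where 4.08% passed (2.99% higher, 1.09% lower). Unadjusted, p was under 0.05 by the brightest probe for 3 ligands at 2 h and 0 at 24 h. The 3 were Wnt10a (-1.56, 95% interval -2.72 to -0.40, adjusted p = 0.171), Wnt4 (0.39, 95% interval 0.01 to 0.78, adjusted p = 0.297) and Wnt16 (0.33, 95% interval 0.02 to 0.63, adjusted p = 0.277). The other Wnt6 probe gave 0.50 at 2 h (95% interval 0.17 to 0.84, unadjusted p = 0.00602, adjusted p = 0.14). At 24 h that probe gave -0.35 (95% interval -0.68 to -0.015, unadjusted p = 0.0416, adjusted p = 0.217). With normexp background correction 4 ligands passed at 2 h, namely Wnt4 (0.67), Wnt5a (-1.32), Wnt7a (-1.06) and Wnt10a (-1.92).

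The 95% intervals at 2 h ran from -1.42 to 0.43 for Wnt7a, from -0.07 to 1.04 for Wnt7b and from -0.03 to 0.88 for Wnt6. They were narrower for Wnt5b (-0.18 to 0.39) and Wnt11 (-0.23 to 0.51). At 24 h they were -0.63 to 0.14 for Wnt4, -0.03 to 1.08 for Wnt7b and -0.32 to 0.25 for Wnt5b. These values do not show that the compounds act alike.

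**Figure D4:**
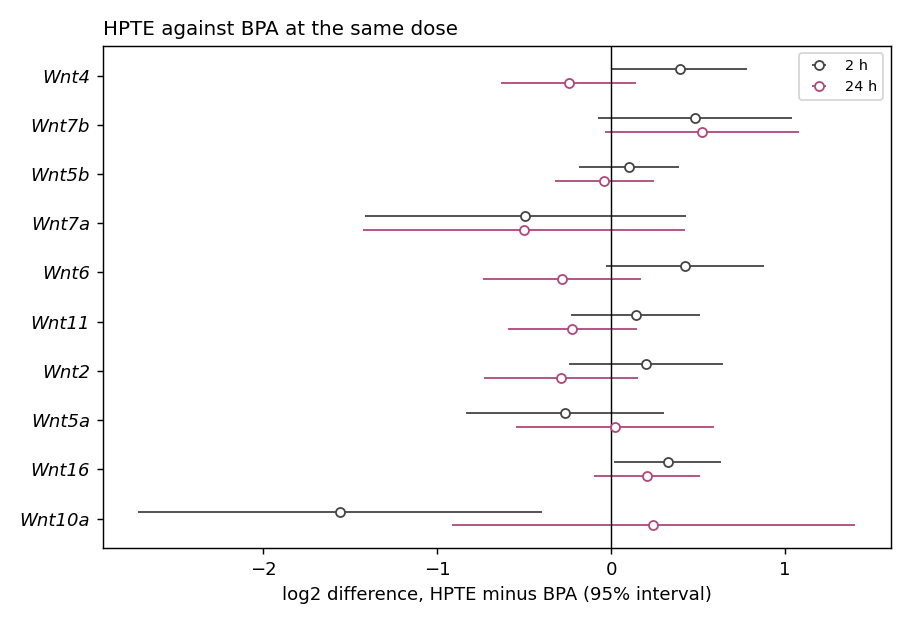
Log2 difference of HPTE minus BPA for each ligand at 2 h and 24 h, with 95% intervals. The differences run from -1.56 (Wnt10a at 2 h) to 0.52 (Wnt7b at 24 h), and none had an adjusted p under 0.05.

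Over the 20 arrays, ligand pairs with the most similar profiles were Wnt4 and Wnt5b (Pearson r = 0.87), Wnt6 and Wnt11 (0.86), Wnt2 and Wnt11 (0.86) and Wnt2 and Wnt6 (0.85). Wnt4 and Wnt7b had r = 0.69, and Wnt7a and Wnt7b had the lowest value of the 45 pairs (-0.75). Among 15472 other annotated genes, the profiles most like Wnt4 were those of Tlnrd1 (0.99), Mark1 (0.99) and Twist2 (0.99), and those most like Wnt7b were P4ha2 (0.97), Trim15 (0.97) and Bag2 (0.96). Wnt2 was closest to Ano2 (0.97), Pex11a (0.97) and Nbl1 (0.96), Wnt6 to Acbd4 (0.98), Lgals4 (0.97) and Zfp607b (0.97), and Wnt11 to Tgfbi (0.97), Abca4 (0.96) and Sparcl1 (0.96). Wnt7a was closest to Irs1 (0.92), Rfx2 (0.92) and Prag1 (0.89), Wnt5a to Emb (0.93), Agfg2 (0.91) and Stim2 (0.91), and Wnt5b to Klhdc8b (0.95), Kit (0.95) and Es2el (0.94). Wnt16 (Map2k6 0.87, Ildr1 0.87, Slc15a2 0.86) and Wnt10a (Calhm6 0.72, Ubd 0.70, Tnfrsf18 0.69) had looser neighbours. These values share arrays, groups and scaling and carry no test.

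The rest of the Wnt pathway was read from lists of genes by role, and each rise or fall named passed the same threshold. Of the other 9 ligands, 4 were testable (Wnt1, Wnt3, Wnt9a and Wnt9b). Wnt9a rose at 2 h with E2 (1.47), BPA (1.65) and HPTE (2.69), beside Wnt4. Wnt9b fell with E2 at 24 h (-1.30). Wnt3 was well above background on all vehicle arrays and on no E2 or 24 h array, and was at least 4.81-fold lower with E2 at 2 h and at least 5.22-fold, 5.5-fold and 5.61-fold lower at 24 h with E2, BPA and HPTE. At 2 h the Wnt3 differences were -1.97 with BPA, where 1 of the 3 arrays was not well above background, and -2.21 with HPTE. The sperm cell markers had the same pattern, high on vehicle arrays, and their part in the Wnt3 values was not tested.

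There were 15 receptors tested (10 Frizzleds, Lrp5, Lrp6, Ror1, Ror2 and Ryk). At 2 h, E2 raised 1 and lowered 3, BPA raised 1 and lowered 7, and HPTE raised 3 and lowered 4. Of all probes, 17%, 30.2% and 28.2% were lower and 11.1%, 19.3% and 19.9% higher. Fzd1 fell with E2, BPA and HPTE (-1.46, -2.39 and -3.01), and so did Fzd7 (-1.13, -1.72 and -2.02). Fzd10 fell with BPA (-1.92) and HPTE (-1.71). Fzd9 rose with each compound (0.91, 0.61 and 0.66), Lrp5 rose with HPTE (1.60) and Fzd4 with HPTE (0.55). At 24 h, E2 raised 1 receptor and lowered 7, where 63.8% of all probes passed (26.3% higher, 37.6% lower). Among those lowered were Fzd7 (-1.95) and Fzd10 (-1.91).

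R-spondins amplify Wnt signals through Lgr receptors, and Rnf43 and Znrf3 remove Frizzleds from the membrane. Of 7 tested genes of this kind, BPA lowered 6 and raised 1 at 2 h, HPTE lowered 5 and raised 1, and E2 lowered 2 and raised 1, where 49.4%, 48.1% and 28.1% of all probes passed. Rspo3 fell with E2, BPA and HPTE (-1.35, -2.34 and -2.61). Lgr6 rose (1.34, 2.44 and 2.12), whereas Lgr5, a marker of epithelial stem cells, fell with BPA (-1.78), HPTE (-1.43) and E2 at 24 h (-2.27). Rnf43 fell with BPA (-1.61) and HPTE (-1.81) at 2 h.

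At 2 h, E2 lowered 2 of 9 tested antagonists and raised 0, BPA lowered 3 and raised 1, and HPTE lowered 5 and raised 0, where 28.1%, 49.4% and 48.1% of all probes passed. Dkk2 fell with each (-0.67, -1.59 and -1.60), and so did Sfrp2 (-0.51, -0.80 and -0.52). E2 at 24 h lowered 6 and raised 1, where 63.8% of all probes passed (37.6% lower), led by Wif1 (-3.69), Sfrp2 (-2.42) and Sfrp1 (-1.72), each of which binds Wnt proteins outside the cell. Frzb rose with BPA at 2 h (0.46) and with E2 at 24 h (0.37). Of 3 genes that make, carry or inactivate ligands, Notum, an enzyme that strips the lipid from Wnt proteins, fell with BPA (-1.63) and HPTE (-0.87) at 2 h and with E2 (-3.18), BPA (-1.03) and HPTE (-1.04) at 24 h. Wls fell with BPA (-0.65) and HPTE (-0.53) at 2 h and with E2 at 24 h (-0.38), and Porcn was lower with BPA at 2 h (-0.40) and higher with BPA (0.48) and HPTE (0.39) at 24 h.

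Axin2, a widely used readout of canonical signalling, is 1 of 9 genes used as β-catenin targets. It rose at 2 h with E2 (1.24), BPA (0.83) and HPTE (0.95) and was below vehicle at 24 h (-1.73, -0.65 and -0.68). Sp5 fell at 2 h with E2 (-2.21), BPA (-1.68) and HPTE (-2.33), and Nkd2 fell as well (-0.85, -1.48 and -1.37). Myc rose with E2 (1.34) and BPA (0.62), and Msx2 with E2 (0.84). In all, E2 raised 3 and lowered 3 of the 9 at 2 h, BPA raised 2 and lowered 5, and HPTE raised 1 and lowered 4, where 28.1%, 49.4% and 48.1% of all probes passed. Of 12 genes of signal transduction, E2 at 24 h raised 1 and lowered 6, where 63.8% of all probes passed (37.6% lower), among them Lef1 (-1.96), Tcf7l2 (-1.04) and Tcf7l1 (-0.92), which bind DNA with β-catenin. At 2 h, E2 raised 2 of these 12 and lowered 1, and BPA and HPTE each raised 4 and lowered 3. There, 28.1%, 49.4% and 48.1% of all probes passed, and the median differences of the 12 were -0.03, -0.07 and -0.01. Among the rises at 2 h, the kinase gene Csnk1a1 rose with E2 (0.37), BPA (0.73) and HPTE (0.85), Tcf7 with BPA (0.45) and HPTE (0.67), and Axin1 with BPA (0.62) and HPTE (0.45). The lists are described by their counts alone, and their control by Wnt signals in this tissue was not measured.

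**Figure D5:**
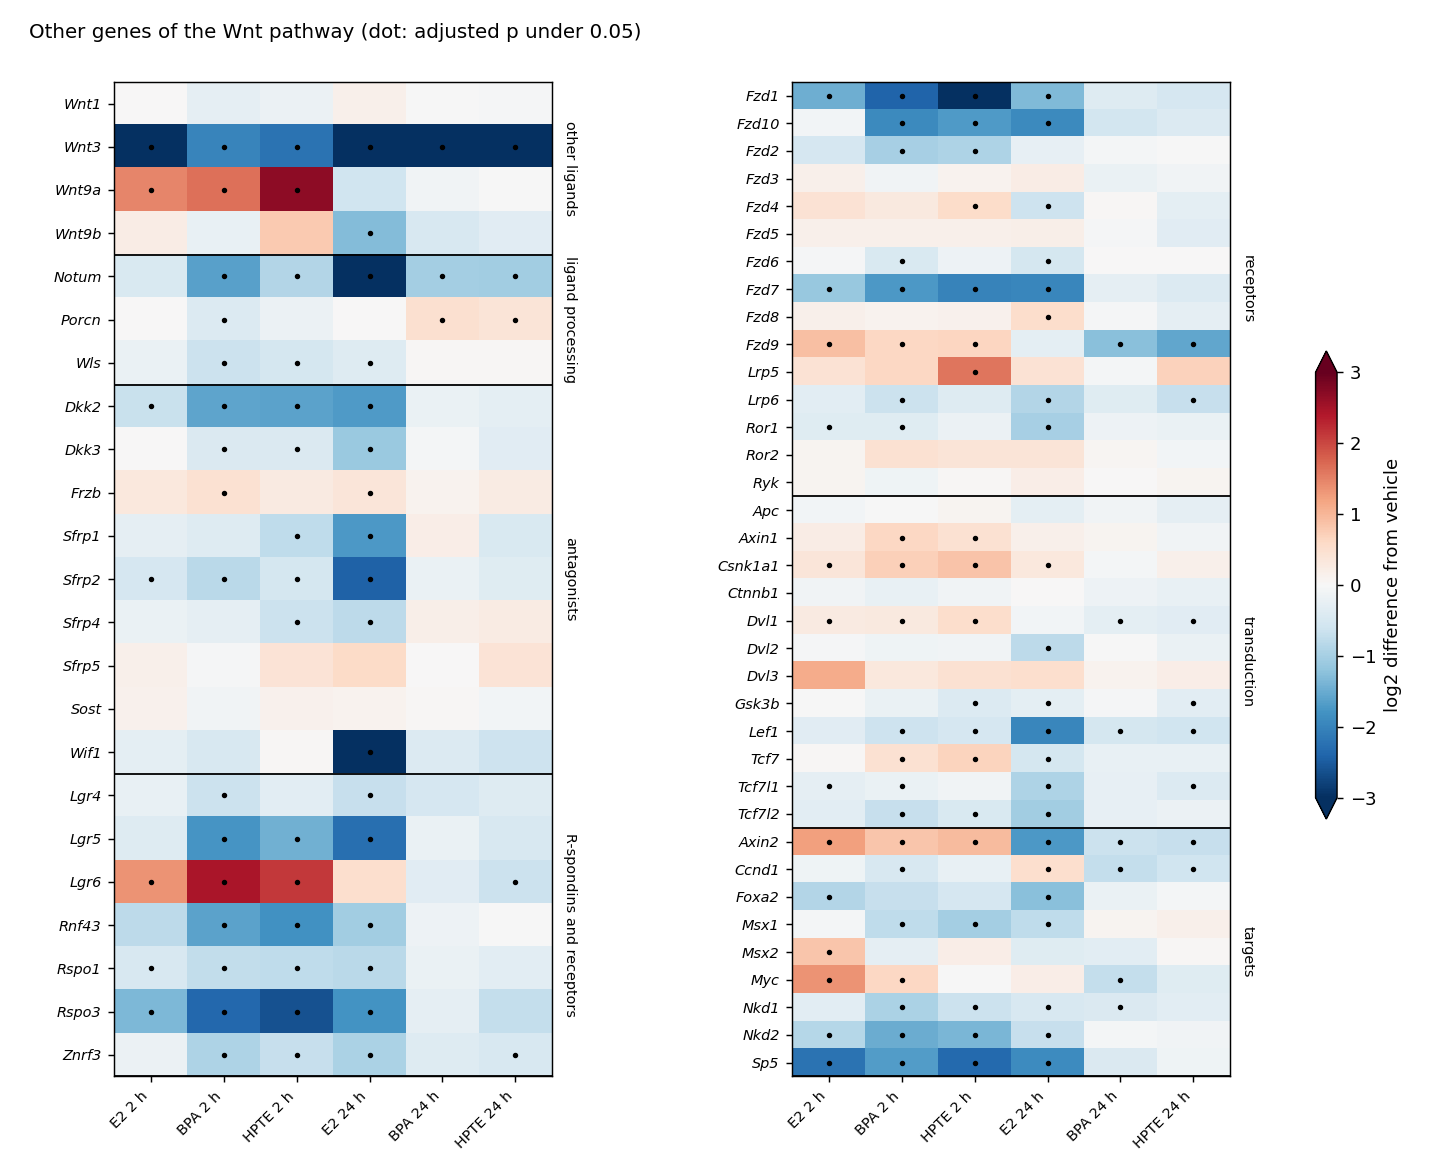
Log2 difference from vehicle (colour, limited to -3 to 3) of the other Wnt pathway genes in the 6 treated groups, ordered by role, with a dot where the adjusted p was under 0.05. Fzd1, Fzd7, Rspo3 and Sp5 are lower at 2 h with all 3 compounds, Axin2 and Wnt9a higher, and E2 at 24 h lowers Wif1 and Notum by over 3 (Wnt3 was not above background with E2 or at 24 h).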

How the data were processed

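The deposited scanner files give each spot's intensity in arbitrary units, background subtracted by the authors with Feature Extraction 9.5 and not scaled between arrays, together with the deposited flags (other) that mark a spot as clearly above its background, as saturated or as an outlier. The series matrix held the same values. Groups came from the sample titles. Outlying spots (46 to 134 an array) and 1639 control spots were left out, and log2 intensity was taken relative to each array's own 75th percentile (1320 to 2046). Scaled intensity multiplies back by the median percentile (1679). Testing required a probe to be well above background throughout at least 1 group. Centring fixes the level of most probes, so a shift common to all would not be seen, and the number of arrays limits the precision. A means model over 7 groups was fitted with limma 3.58.1 in R 4.3.3 (lmFit, eBayes), with two-sided p values adjusted by Benjamini-Hochberg (threshold 0.05), after being checked on simulated data. The study processed its arrays in Rosetta Resolver, whose error model was not rerun here. P values measure the spread between uteri.

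Alternatives were normexp (offset 50), quantile, no or spike-in scaling (8 probes), no filter or a mean over 100, only the groups compared, slide as a fixed or random block, the later scan day left out (2 arrays), the replicate number as a block, other probes, and each array left out. Members and gene lists were chosen with earlier results of these data known. Named genes are the 10 ligands, up to 3 genes a list and direction with the largest called change from vehicle, and the 3 genes closest to each ligand by Pearson r. The sequence and position of 1 ligand probe are not reported here.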

Additional observations from a re-analysis of the deposited data

Results flagged for a closer look

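The level of a ligand differed between 2 h and 24 h of the same compound in 19 tests of the difference itself (limma, adjusted p under 0.05), each on the log2 scale as 24 h minus 2 h. With E2 these were Wnt2 (-2.68), Wnt4 (-3.63), Wnt5a (0.94), Wnt5b (-0.58), Wnt6 (-2.38), Wnt7a (-1.78), Wnt7b (0.78) and Wnt11 (-3.0). With BPA they were Wnt4 (-3.53), Wnt5b (-0.51), Wnt6 (1.0), Wnt7b (-2.02), Wnt11 (0.72) and Wnt16 (0.68). With HPTE they were Wnt4 (-4.17), Wnt5a (0.89), Wnt5b (-0.65), Wnt7b (-1.98) and Wnt16 (0.56). Whether the change over time differed between compounds was not tested.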

How the results depend on the processing

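Of 46 called ligand results, 23 kept their call in all 32 alternative settings, and of 64 not called, 44 stayed so. Over all settings, 99 calls were lost, 57 were gained and 1 value changed direction (Wnt11 with BPA at 2 h, 0.0604 after normexp correction), where values past the threshold in neither setting are not counted as changed. With normexp, 4 ligands were called for BPA at 2 h, 0 for BPA at 24 h, 3 between the BPA times and 4 for HPTE against BPA at 2 h. With spike-in scaling there were 4 for BPA and 4 for HPTE at 2 h, 0 for BPA at 24 h, 5 between the E2 times and 3 between the BPA times. For E2 at 2 h the count was 2 with quantile normalization, with no scaling, with the slide as a fixed block, with the other probes or with only the groups compared, and 3 with the filter on a mean over 100. Only the groups compared gave 10 for HPTE at 2 h and 8 between the HPTE times. The slide as a fixed block gave 1 for HPTE at 24 h and 5 between the E2 times. Without the later scan day the count for BPA at 24 h was 0. The cause of these changes was not tested. With each array left out, counts ran from 1 to 3 (E2 2 h), 5 to 8 (BPA 2 h), 5 to 8 (HPTE 2 h), 5 to 7 (E2 24 h), 0 to 2 (BPA 24 h), 2 to 4 (HPTE 24 h), 6 to 8 (E2 over time), 6 to 8 (BPA over time), 4 to 7 (HPTE over time) and 0 for HPTE against BPA at both times. Of 41 called results with a slide holding both groups, 40 had the same sign on each such slide, Wnt7a with BPA at 2 h being the exception. The median difference of all probes was -0.36 for HPTE at 24 h and 0.15 at 2 h with spike-in scaling (-0.06 and -0.09 as reported), and -0.29 for E2 at 2 h with no scaling (-0.06 as reported). The direction of Wnt4, Wnt7b, Wnt6 and Wnt7a calls was kept under each scaling.

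The replicate numbers share no stated source, and same-numbered arrays had correlations of their deviations from -0.36 to 0.33 (median -0.05, 57 pairs), with 4 of 20 arrays closest to their own number. With a replicate block, no count of calls moved by over 1.5 times, and Wnt7a from 2 h to 24 h with BPA (1.04, adjusted p = 0.0333) and HPTE (1.03, adjusted p = 0.0311) and Wnt2 with HPTE (-0.44, adjusted p = 0.0483) passed the threshold.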
